A study of Mus musculus with 18 samples.

Results

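Hox genes encode homeodomain transcription factors that lie in 4 clusters, HoxA to HoxD, and are numbered into paralog groups by sequence and by position in the cluster. In the embryo they are switched on in the order of that position, so low-numbered genes act in the hindbrain, pharyngeal arches and neck and high-numbered genes act towards the tail, in the limbs and in the urogenital tract. Adult cells often keep part of the Hox code of the place they came from. The thyroid forms from the pharyngeal floor, while its C cells, which secrete calcitonin, reach the lobe through the ultimobranchial bodies of the last pharyngeal pouch. Mice that lack some of the group 3 and group 5 genes have thyroid defects.

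Members were all probes for genes on the array whose name in the scanner files was Hoxa, Hoxb, Hoxc or Hoxd followed by a number. This gave 38 genes with 49 probes, of 27670 gene names in all, and the probe with the highest mean intensity of both channels stood for its gene. Genes were thus chosen by name, and probes were chosen by the measured intensity. Hoxb7 and Hoxb8 had been singled out with results of these data known, so their difference between the areas is a description of what drew attention to them and not independent evidence. Hoxc11 was not analysed here.

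The study compared laser-captured thyroid tissue of male C57BL/6 mice in 4 groups, namely the central area of normal lobes (n = 5), the peripheral area of normal lobes (n = 3), and the central (n = 5) and peripheral (n = 5) areas of lobes left after partial thyroidectomy, called dissected in the labels. Either lobe, right or left, could be captured. Amplified RNA of 1 captured area was hybridised in Cy5 against a commercial mixture of total RNA in Cy3 on each of 18 two-colour arrays. That reference came from Swiss Webster mice and held brain, heart, kidney, liver, lung, ovary, spleen, testicle, thymus and whole embryos of 10 to 12 days, an age at which Hox genes are active. No dyes were swapped, and neither the interval from surgery to sampling nor the animal of each area is given in the labels. Some areas may therefore share an animal, which the tests did not model. The p-values could then be too small where areas of 1 group shared an animal, or too large where the compared areas did. They measure only the spread between these samples.

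In Cy5, 14 arrays detected 35.2% to 44.0% of gene probes, a probe counting as detected when its spot was flagged well above background. On the other 4, normal peripheral 1, dissected central 1 and 2 and dissected peripheral 1, the share was 24.7% to 29.5%. The arrays lay on 5 slides scanned on 2 days, and each slide held both areas. Of 8 thyrocyte markers 6 were measured, with a summed Cy5 intensity of 257363 to 481547 over all arrays, while Foxe1 and Slc5a5 were not well above background on any array. Of 8 C cell markers 7 were called higher in the central area in the mean of both states, against 1.43% of all genes, at a median log2 difference of 3.22, and no gene of the other marker lists was called in any comparison.

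The first question was which Hox genes were detected at all. By detection in Cy5 on 3 or more arrays 14664 of all 27670 genes passed, and of the 38 Hox genes 18 did. Among these were Hoxa2, Hoxa3, Hoxa4, Hoxa5 and Hoxa7, then Hoxb2, Hoxb5, Hoxb6, Hoxb7, Hoxb8 and Hoxb9, then Hoxc4, Hoxc5 and Hoxc6, and last Hoxd3, Hoxd4 and Hoxd13. Hoxc6 passed on exactly 3 arrays, 1 normal central and 2 dissected central. Hoxa13, Hoxb4, Hoxb13 and Hoxc10 were detected on 1 array each, and 16 genes were detected on none.

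**Figure D1:**
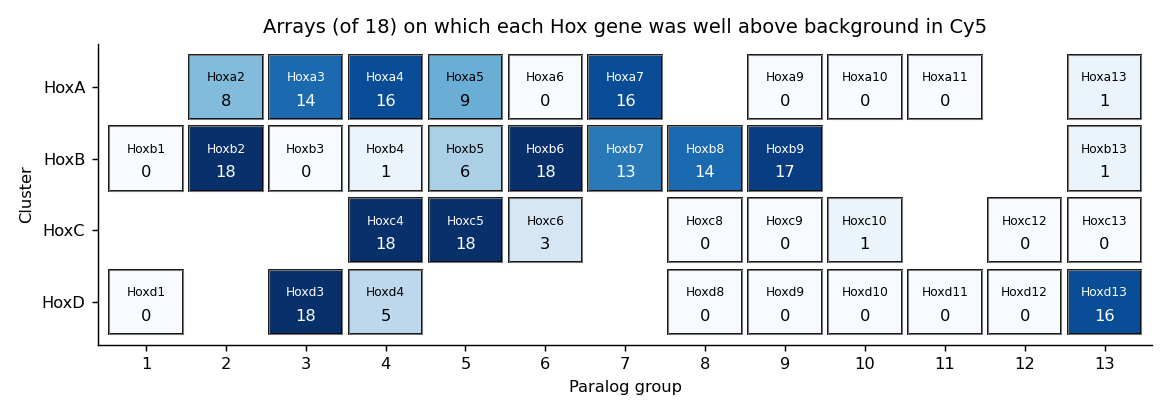
Each box is 1 of 37 Hox genes, placed by cluster (rows) and paralog group (columns). The number and the shade give the arrays, of 18, on which its probe was well above background in Cy5. The low-numbered and middle groups hold most filled boxes, and groups 9 to 13 hold 2 genes on more than 1 array, Hoxb9 (17) and Hoxd13 (16).

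Fewer of the high-numbered genes were detected, in the tissue and in the reference alike. In paralog groups 1 to 4, which pattern the hindbrain and pharyngeal arches, 8 of 12 genes were detected, and in groups 5 to 8 again 8 of 11. In groups 9 to 13, the genes of the posterior trunk, limbs and urogenital tract, 2 of 15 were detected. In the reference channel, Cy3, the counts by the same rule were 7, 7 and 2, so this order was not particular to the thyroid samples. The 2 were again Hoxb9 (17 arrays in Cy3) and Hoxd13 (11). The 5 genes detected on all 18 arrays were Hoxb2, Hoxb6, Hoxc4, Hoxc5 and Hoxd3. By cluster, 6 of 11 HoxA, 6 of 10 HoxB, 3 of 8 HoxC and 3 of 9 HoxD genes were detected.

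Detection was also counted by area, with 10 central against 8 peripheral arrays. On central arrays 18 Hox genes passed on at least 3 arrays, and on peripheral arrays 13, or 72.2% of the 18. Of all 14664 genes kept, 92.8% passed on central and 86.7% on peripheral arrays, so the share was lower on peripheral arrays over all genes too. The 5 genes that passed through the central arrays alone were Hoxa2, Hoxa5, Hoxb5, Hoxc6 and Hoxd4. The filter chose them in the area where they were detected, so their difference between the areas is a description and no support for one. Hoxb5, a gene of the foregut and neck region, and Hoxc6, a gene of the trunk, were detected on no peripheral array. The number of Hox genes detected on an array was 14 to 17 (median 15) in normal central, 8 to 14 (median 13) in normal peripheral, 9 to 17 (median 17) in dissected central and 7 to 14 (median 12) in dissected peripheral samples. The lowest count of each of the last 3 groups came from an array with few probes detected overall.

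Probes of 1 gene did not always give the same picture, and the case that stood out was Hoxd3, a group 3 gene of the pharyngeal arches and neck vertebrae. Its brighter probe (mm7 chr2:74588190-74588249) had a Cy5 intensity of 45950 to 318332 and a Cy3 intensity of 31376 to 85251 over the 18 arrays. Its other probe further along the cluster (chr2:74591215-74591274), was well above background on 1 array, dissected central 4, with a Cy5 intensity of 519. A further probe, named for Hoxb3 (chr11:96454839-96454898), lists RefSeq transcripts of both Hoxb3 and Hoxd3, and was at background on all 18 arrays with Cy5 intensities of 72.3 to 164. The bright probe is printed below from the scanner files, 5′ to 3′, because the other probes do not share its values. Capitals mark codons, found by a search of the open reading frames, which encode the hexapeptide, a short motif that contacts the cofactor Pbx.
Hoxd3 probe: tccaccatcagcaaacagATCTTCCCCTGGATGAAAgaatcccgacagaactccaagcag
The Hoxd3 values below are thus those of 1 probe, and they are not taken as the level of Hoxd3.

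Of the 10 further genes with a second probe, both probes passed the 3-array minimum for 2 (Hoxb2 and Hoxb6), 1 of the 2 for 5 (Hoxa3, Hoxa4, Hoxb8, Hoxb9 and Hoxd13) and neither for 3 (Hoxa13, Hoxc10 and Hoxd9). The second probes of Hoxb8 and Hoxa4 were at background on every array. Hoxb9 and Hoxd13, the 2 genes of groups 9 to 13 that passed, were each detected by 1 of 2 probes, and the probe detected in both carries no RefSeq accession in the files. Their second probes, which do, were detected on no array. Detection of these posterior genes therefore rests on probes with no RefSeq match in the files.

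The second question was whether Hox genes differed between the central and the peripheral area. Hoxb7 and Hoxb8, neighbouring genes of the middle of the HoxB cluster that pattern the trunk, were higher in the central area, and so were Hoxa4, a gene of the neck, and Hoxa2, the gene that sets the identity of the second pharyngeal arch. In the mean of both states these 4 of 18 genes were called higher and none lower, by limma with Benjamini-Hochberg adjustment over 14664 genes at 0.05. Over all genes 1.43% were called. In dissected glands 2 of 18 were called, Hoxb7 and Hoxb8, against 0.586% of all genes. In normal glands 0 of 18 were called, against 0.28%, and 5 of 18 had an unadjusted p under 0.05, against 8.59% of all genes. The same count was 8 of 18 in dissected glands, against 7.43%, and 8 of 18 in the mean of both states, against 8.4%. Without the 5 genes that passed through central arrays alone, 3 of 13 were called in the mean of both states, namely Hoxb7, Hoxb8 and Hoxa4, against 1.19% of the 12423 genes detected on at least 3 arrays of each area. An unadjusted p under 0.05 was then found for 5 of 13, against 8%. In dissected glands 2 of 13 were called, Hoxb7 and Hoxb8, against 0.531%, and 5 of 13 had such a p, against 7%. In normal glands 0 of 13 were called, against 0.298%, and 3 of 13 had such a p, against 8.83%. Hoxb7 and Hoxb8 had been singled out with results of these data known, so counts that hold them are a description and no independent support. Apart from these 2, Hoxa4 was the gene of the 13 called in the mean of both states, and none was called in dissected glands. The median difference of the 18 genes was 0.14 in the mean of both states, and that of all genes was -0.00240.

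Hoxb7 (probe at chr11:96398936-96398995) varied most. Its Cy5 intensity was 1678, 375, 1665, 376 and 585 in normal central, and 91.5, 136 and 118 in normal peripheral samples. It was 216, 92.3, 1946, 1412 and 1479 in dissected central, and 97.9, 109, 180.2, 180.4 and 136 in dissected peripheral samples. The probe was well above background on 5 of 5 normal central, 2 of 3 normal peripheral, 4 of 5 dissected central and 2 of 5 dissected peripheral arrays. All 5 normal central and 4 of 5 dissected central samples lay above every peripheral one, and dissected central 2 lay among them. The Cy3 intensity of the same spots was 301 to 589 in normal central and 353 to 527 in normal peripheral samples. It was 166 to 671 in dissected central and 176 to 589.6 in dissected peripheral samples, so the reference channel did not follow the area.

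As log2 ratios of tissue over reference, Hoxb7 lay at 1.39, 0.26, 1.18, -0.85 and -0.20 in normal central and at -0.47, -1.60 and -1.72 in normal peripheral samples. In dissected glands it lay at 0.46, -0.82, 1.77, 0.81 and 1.58 centrally and at -0.93, -2.29, -1.78, -1.85 and -2.53 peripherally. The groups overlapped in normal glands, where normal central 4 lay below normal peripheral 1, and did not overlap in dissected glands. The group means were 0.35 ± 0.94 (SD, n = 5), -1.26 ± 0.69 (SD, n = 3), 0.76 ± 1.03 (SD, n = 5) and -1.88 ± 0.61 (SD, n = 5), in that order. Both central groups stood above both peripheral groups, and within each area the groups differed by less than their spread.

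The central area exceeded the periphery for Hoxb7 by log2 1.62 (SE 0.57) in normal glands (limma adjusted p = 0.384) and by 2.64 (SE 0.49) in dissected glands (adjusted p = 0.0139). In the mean of both states the difference was 2.13 (SE 0.37, adjusted p = 0.00406), or 4.37-fold. The probe was not well above background on 4 of 8 peripheral arrays, and the size moved with the processing. With the processed signals of the scanner files the difference was 3.76 in the mean of both states and 3.43 in normal glands, and with the authors' value table it was 3.80 and 3.49. Within slides it was higher centrally on 3 of 3 slides in normal and 5 of 5 in dissected glands, by 0.86 to 1.86 and by 1.40 to 4.11. Without dissected central 3, dissected central 5 or dissected peripheral 5 the dissected call was lost, at adjusted p = 0.0560, 0.0521 and 0.0518. It was also lost with scaling between arrays, at 2.21 (adjusted p = 0.116), with Cy5 alone, at 2.26 (adjusted p = 0.151), and with only the arrays of the groups compared (adjusted p = 0.0593). On scan day 1 alone (adjusted p = 0.329) and scan day 2 alone (adjusted p = 0.823) it was not called either.

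Hoxb8 (probe at chr11:96394181-96394240) followed the same order of groups. Its log2 ratio was 1.39, 0.35, 0.78, 0.52 and 0.12 in normal central and -0.12, -0.89 and -1.18 in normal peripheral samples. In dissected glands it was -0.16, -0.34, 1.32, 1.86 and 1.69 centrally and -0.40, -1.19, -0.92, -1.09 and -1.49 peripherally. The areas did not overlap in either state, and dissected central 1 and 2 came closest to the periphery. The difference was 1.36 (SE 0.46) in normal (limma adjusted p = 0.371) and 1.89 (SE 0.40) in dissected glands (adjusted p = 0.0344). In the mean of both states it was 1.63 (SE 0.30, adjusted p = 0.00595), or 3.08-fold. The call in dissected glands was lost without any of 8 arrays (normal central 3, dissected central 3, 4 and 5, dissected peripheral 2 to 5), at adjusted p = 0.0509 to 0.115, and was kept without each of the other 10. It was lost as well in 8 other settings, at adjusted p = 0.0611 to 0.942. With the processed signals the difference in the mean of both states was 2.73. The probe was well above background on 5 of 8 peripheral arrays.

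**Figure D2:**
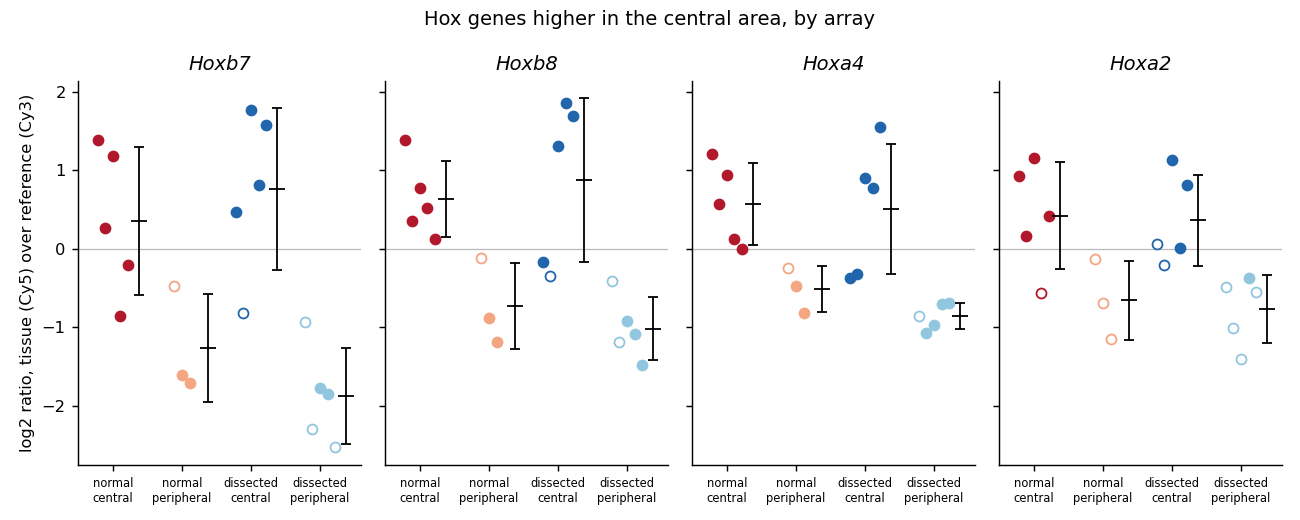
Each point is 1 array, with its log2 ratio of tissue (Cy5) over reference (Cy3) on the vertical axis and the 4 groups on the horizontal axis. Filled points were well above background in Cy5, open points were not, and the black bars give the mean and SD. In all 4 genes the peripheral samples lie below 0, and dissected central 1 and 2, the first pair in their group, lie lower than most central samples.

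In the HoxA cluster the gene with the largest difference was Hoxa4 (probe at chr6:52153263-52153322). Its log2 ratio was 1.21, 0.57, 0.94, 0.13 and -0.000737 in normal central and -0.24, -0.47 and -0.82 in normal peripheral samples. In dissected glands it was -0.37, -0.32, 0.90, 0.78 and 1.56 centrally and -0.86, -1.07, -0.97, -0.71 and -0.69 peripherally. The areas did not overlap in either state. The difference was 1.08 in normal (SE 0.37) and 1.37 in dissected glands (SE 0.32), neither called (limma adjusted p = 0.380 and 0.0673), and 1.23 in the mean of both states (SE 0.24, adjusted p = 0.00971), or 2.34-fold. The last call was lost with the slide as a fixed block, at a difference of 1.15 (adjusted p = 0.0527), and on either scan day alone (adjusted p = 0.106 and 0.688). With the processed signals the difference was 1.87.

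Hoxa2 (probe at chr6:52125851-52125910) was detected on 4 of 5 normal central, 0 of 3 normal peripheral, 3 of 5 dissected central and 1 of 5 dissected peripheral arrays. Its log2 ratio was 0.93, 0.17, 1.16, -0.57 and 0.42 in normal central and -0.13, -0.69 and -1.14 in normal peripheral samples. In dissected glands it was 0.07, -0.21, 1.14, 0.01 and 0.82 centrally and -0.49, -1.02, -1.41, -0.37 and -0.55 peripherally. The areas overlapped in normal glands through normal central 4, where the probe was not well above background. In the mean of both states the difference was 1.11 (SE 0.25, limma adjusted p = 0.0291). Hoxa2 is one of the genes that entered the test through central arrays alone, so this call is no support for a difference. It was lost without any of 8 arrays, at adjusted p = 0.0543 to 0.122, and in 7 other settings, among them Cy5 alone, at 0.95 (adjusted p = 0.112), and no filter on dim probes (adjusted p = 0.0705). With the processed signals the difference was 3.02. Since no normal peripheral array measured Hoxa2, its difference in normal glands is also given as a bound. It was computed from the mean central Cy5 level against the lowest level detected on each peripheral array, and came to 1.59-fold. This bound holds no error between samples, and its central mean includes normal central 4, where Hoxa2 was not detected. The fold is therefore no lower limit.

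Counted by arrays that did not overlap, 2 of 18 genes stood apart between the areas in normal glands, Hoxa4 and Hoxb8, against 4.86% of all genes. In dissected glands 4 of 18 did, Hoxa2, Hoxa4, Hoxb7 and Hoxb8, against 1.67%. Hoxb7 and Hoxb8 had been singled out and Hoxa2 passed through central arrays alone, so these counts are a description. In dissected glands the gap for Hoxb7 lay between dissected central 2 (-0.82) and dissected peripheral 1 (-0.93). For Hoxb8 it lay between the same arrays (-0.34 and -0.40), and none of these spots was well above background. For none of the 18 did all 10 central arrays lie above all 8 peripheral ones, against 0.116% of all genes whose areas stood apart in this way.

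**Figure D3:**
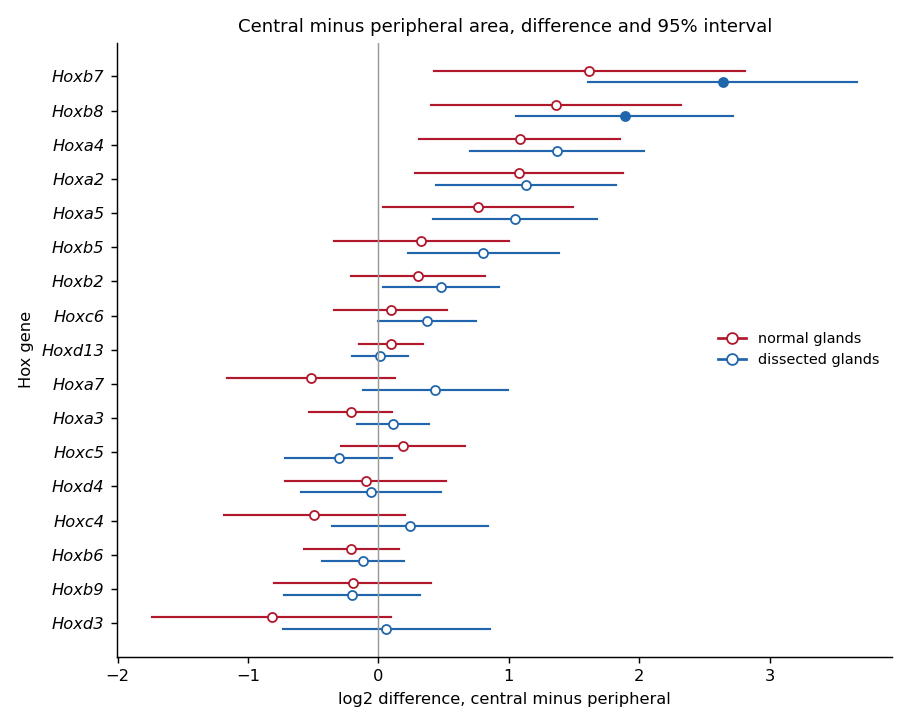
Points give the log2 difference of the central minus the peripheral area for 17 Hox genes, in normal (red) and dissected glands (blue), and lines give the 95% interval of the limma fit. Filled points passed an adjusted p of 0.05. Hoxb7, Hoxb8, Hoxa4, Hoxa2 and Hoxa5 lie above 0 with their whole interval in both states, and the intervals of the 9 lowest rows include 0 in both states.

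Hoxa5, a gene of the lung, thyroid and neck skeleton, did not pass the test. In normal glands its log2 ratio averaged 0.39 ± 0.41 (SD, n = 5) centrally and -0.37 ± 0.27 (SD, n = 3) peripherally. In dissected glands it averaged 0.52 ± 0.76 (SD, n = 5) and -0.53 ± 0.37 (SD, n = 5). The difference in the mean of both states was 0.91 (SE 0.23, limma adjusted p = 0.0626), and the central area was higher on 3 of 3 and 5 of 5 slides. Hoxb5 had a difference of 0.57 (adjusted p = 0.382) and Hoxb2, a hindbrain gene, of 0.39 (adjusted p = 0.482). Hoxb5 was measured on no peripheral array, and the bound used for Hoxa2 came to 1.18-fold in normal and 1.39-fold in dissected glands. That bound holds no error between samples, and each central mean includes arrays where Hoxb5 was not detected, as only 3 detected it. These folds are therefore no lower limit. Since Hoxa5, Hoxb5 and Hoxc6 passed through central arrays alone, the filter favoured this direction, and their values are no support for a difference. Hoxd4 passed in the same way and differed by -0.08 in the mean of both states.

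The other 9 genes lay between -0.38 and 0.05 in the mean of both states, with adjusted p of 0.800 to 0.980, and none was called in either state. They were Hoxa3, which the thymus and parathyroid require, with a difference of -0.05, Hoxa7 with -0.04, Hoxb6 with -0.16, Hoxb9 with -0.20, Hoxc4 with -0.12, Hoxc5 with -0.06, Hoxd4 with -0.08, Hoxd13 with 0.05 and the bright Hoxd3 probe with -0.38. Their 95% intervals were 0.16 to 0.61 wide on either side. Differences within those widths were not detectable with these arrays.

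Along the clusters the differences formed no single block. In HoxB the probes run from Hoxb9 to Hoxb2, and the high values of Hoxb8 and Hoxb7 were followed by a value near 0 at the brighter Hoxb6 probe (chr11:96408006-96408065), which lies between the Hoxb7 probe and the other Hoxb6 probe and carries no RefSeq accession in the files. The other Hoxb6 probe (chr11:96410288-96410347), which carries the RefSeq accession of Hoxb6, gave 0.72 (SE 0.17), with limma adjusted p = 0.0490 over 19082 probes. It was detected on 5 of 5 normal central, 0 of 3 normal peripheral, 3 of 5 dissected central and 2 of 5 dissected peripheral arrays. The bound used for Hoxa2, which holds no error between samples, came to 1.54-fold in normal glands. This probe too passed the 3-array minimum through central arrays alone, so its values are no support for a difference. The brighter probe gave -0.16 (SE 0.11), so the 2 Hoxb6 probes disagreed and the gene's difference depends on which is read. The 2 Hoxb2 probes gave 0.39 and -0.03. In HoxA, Hoxa3 lay near 0 between Hoxa2 and Hoxa4, and Hoxa7 near 0 beyond Hoxa5.

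**Figure D4:**
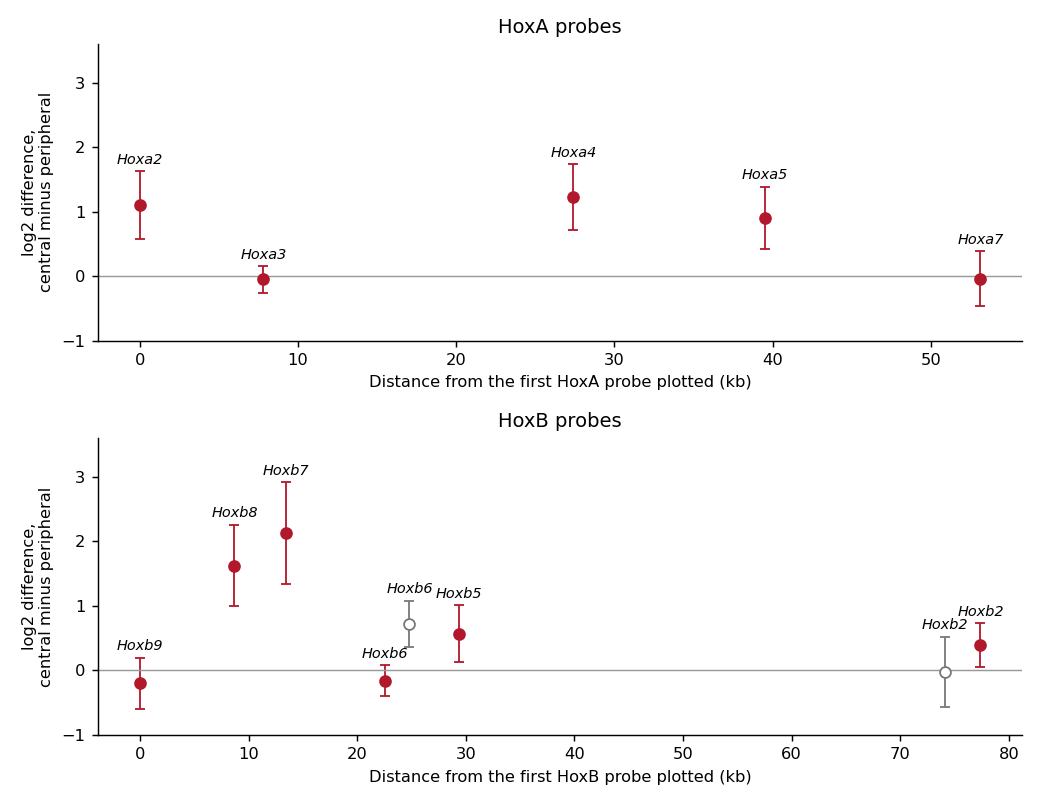
Points give the log2 difference of the central minus the peripheral area in the mean of both states for measured probes of HoxA (top) and HoxB (bottom), against its distance in kb from the first probe plotted. Red points are the probes that stood for their gene, open grey points are second probes, and bars are 95% intervals. The 2 Hoxb6 probes differ, at -0.16 and 0.72, and Hoxb8 and Hoxb7 stand highest.

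Promoters were looked up, as a description, for the genes called higher in the mean of both states. RefSeq windows of 300 bases, from 250 before to 50 after the start, were held for Hoxb8 and Hoxa2 (GRCm38.p6, a later build than that of the probes). None was held for Hoxb7 or Hoxa4. For 3 motifs both strands were searched, namely TTTATG, bound by Cdx factors that switch on trunk Hox genes, TGATTNAT, bound by Pbx with Hox, and AGGTCA, the half-site of the retinoic acid receptor. Capitals mark matches.
Hoxb8, chr11:96281655-96281954, plus strand: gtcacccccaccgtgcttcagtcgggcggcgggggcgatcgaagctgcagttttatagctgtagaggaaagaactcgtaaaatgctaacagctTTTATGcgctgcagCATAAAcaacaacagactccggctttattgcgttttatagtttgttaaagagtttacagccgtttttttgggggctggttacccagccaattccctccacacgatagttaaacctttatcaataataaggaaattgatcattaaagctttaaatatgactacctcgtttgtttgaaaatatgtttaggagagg
Hoxa2, chr6:52164782-52165081, minus strand: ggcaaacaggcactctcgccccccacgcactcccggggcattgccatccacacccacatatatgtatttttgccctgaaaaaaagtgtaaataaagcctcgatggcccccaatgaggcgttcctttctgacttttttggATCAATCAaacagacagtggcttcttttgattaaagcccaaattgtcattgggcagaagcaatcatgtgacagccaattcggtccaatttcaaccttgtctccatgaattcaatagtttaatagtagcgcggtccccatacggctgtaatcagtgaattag
The Hoxb8 window held TTTATG on each strand, and the Hoxa2 window held 1 match to TGATTNAT. Of 32851 windows of the same length 11.9% held TTTATG, 3.22% held TGATTNAT and 16.3% held AGGTCA. Of 24 windows of 22 Hox genes 5, 2 and 7 did. The matches describe these letters and no binding was measured.

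The third question was whether Hox genes changed after partial thyroidectomy. None did by the test. In the central area and in the peripheral area 0 of 18 genes were called, against 0% of all 14664 genes. At an unadjusted p under 0.05 no Hox gene was found in either, while 768 and 1224 genes of all were (limma), or 5.24% and 8.35%. For no Hox gene did dissected and normal samples stand apart, against 1% of all genes centrally and 4.21% peripherally. Hoxb7 lay 0.41 higher in dissected central than normal central samples (95% interval -0.63 to 1.44) and at -0.61 relative to it peripherally (-1.81 to 0.58), neither past the test. For Hoxb8 the values were 0.24 (-0.59 to 1.07) and -0.29 (-1.25 to 0.67). The Hoxb7 intervals reach past a log2 change of 1 upwards in the central and downwards in the peripheral area.

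**Figure D5:**
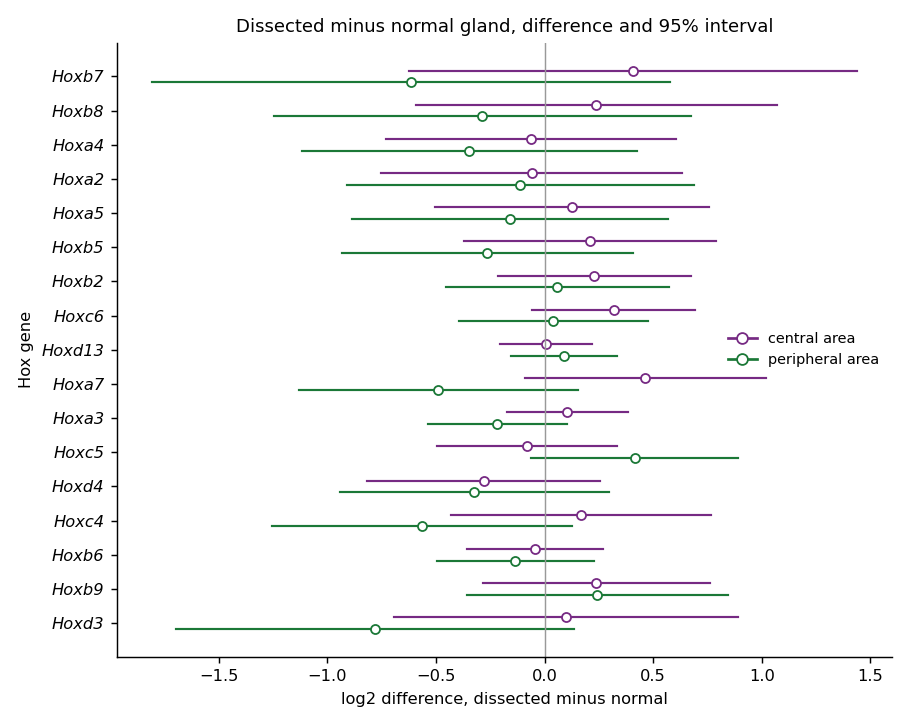
Points give the log2 difference of dissected minus normal glands for 17 Hox genes in the central (purple) and peripheral (green) area, with the 95% interval of the limma fit. No point is filled, since none passed an adjusted p of 0.05, and all intervals plotted include 0.

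The change after dissection did not differ between the areas by the test either, with 0 of 18 genes called against 0% of all. At an unadjusted p under 0.05 there was 1 of 18, against 5.82% of all genes. This was Hoxa7, a trunk gene, whose central minus peripheral difference was -0.52 in normal and 0.44 in dissected glands. That interaction was 0.95 (SE 0.40, limma unadjusted p = 0.0298, adjusted p = 0.790). In normal glands normal peripheral 1, the array with 24.7% of gene probes detected, reached 1.31 for Hoxa7. The other normal peripheral arrays lay at -0.12 and -0.04. For Hoxb7 the interaction was 1.02 (SE 0.75, adjusted p = 0.806).

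The C cell list was higher in the central area, as were Hoxb7 and Hoxb8. Its summed Cy5 intensity was 347371 to 515456 in normal central and 157487 to 199691 in normal peripheral samples. It was 38166 to 497649 in dissected central and 71210 to 143274 in dissected peripheral samples. Calcb was not well above background on any peripheral array, and no other of the 8 markers was undetected in a whole group. Dissected central 2 was the central sample with the lowest Hoxb8 and, after normal central 4, the lowest Hoxb7. The mean log2 ratio of the C cell markers there was -1.37, against 0.84 to 1.68 in the normal central group. On 2 other arrays the values did not fall together. Normal central 4 had the lowest central Hoxb7 (-0.85) at a C cell mean of 0.92. Dissected central 1, a weak array, had the lowest summed C cell intensity and a C cell mean of -0.05, but Hoxb7 at 0.46. From normal to dissected glands the median difference of the C cell list was -0.74 centrally and -0.97 peripherally, with 0 of 8 markers called. Hoxb7 differed by 0.41 and -0.61 and Hoxb8 by 0.24 and -0.29, so centrally the directions were opposite. The part of the C cell list in the Hox result was not tested. In these captured areas fewer cells of a type and less RNA per cell cannot be told apart.

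The 4 arrays with under 30% of probes detected lay in both areas. Leaving them out, an alternative added after seeing the data, raised the Hoxb7 difference in dissected glands to 3.50 (limma adjusted p = 0.000602) and that of Hoxb8 to 2.79 (adjusted p = 4.24e-05). Members called were then 4 in dissected glands, with Hoxa4 and Hoxa5 added, 5 in the mean of both states and 1, Hoxb8 at 1.67 (adjusted p = 0.0126), in normal glands. The shares of all genes called rose too, to 1.32%, 1.85% and 0.648%. With the slide as a fixed block 1 Hox gene, Hoxb7, was called in dissected glands and 2, Hoxb7 and Hoxb8, in the mean of both states. As a random block, an alternative also added after seeing the data, the counts were 2 and 4. Of all genes 0.607% and 1.24% were called with the fixed block, and 0.723% and 1.59% with the random block. Within scan days the Hoxb7 difference in dissected glands was 2.33 and 3.10, higher centrally on both days. On scan day 2 alone no gene of all was called in dissected glands, and 1 of 14662 was called in the mean of both states.

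Genes that work with Hox proteins were read from lists fixed with earlier results of these data known. Of the cofactors Pbx, Meis and Pknox, which bind DNA together with Hox proteins, 6 of 9 were measured and 0 were called (median difference in the mean of both states -0.05). Meis2, an arch and limb cofactor, came nearest at 0.77 (SE 0.19, limma adjusted p = 0.0607), followed by Pknox1 at -0.12 and Meis3 at -0.06. Pbx4 and Meis1 were not well above background in any group. Of the regulators of Hox clusters 5 of 12 were measured and 0 called, with Rarb, a retinoic acid receptor, at -0.11 and Kmt2a, a histone methyltransferase that keeps Hox genes active, at -0.18. Cdx1, Cdx4, Rara, Gdf11 and Kdm6b were not detected in any group.

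Of the Polycomb group, which silences Hox clusters, 18 of 21 were measured and 0 called, with Cbx7 at 0.31, Pcgf6 at -0.30 and Bmi1 at 0.23. The genes that flank the clusters, of which 9 of 12 were measured, were not called either, with a median of -0.00690 and Skap2, beside the HoxA cluster, at 0.50 (adjusted p = 0.407).

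Of the pharyngeal pouch and arch patterning genes 9 of 12 were measured and 2 were called higher in the central area in the mean of both states, against 1.43% of all genes. Ripply3, a repressor that acts with T-box factors in the pharyngeal pouches, was higher by 1.55 (SE 0.25, limma adjusted p = 0.00208). It was the list's call in normal glands as well, at 1.92 (adjusted p = 0.0401), where 0.28% of all genes were called. Pax9, a pouch endoderm factor that the thymus, parathyroid and ultimobranchial body need, was higher by 1.11 (SE 0.24, adjusted p = 0.0204). The list's median was 0.35 and the other 7 genes, such as Eya1 at 0.35, were not called.

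The genes most like the mean of Hoxb7 and Hoxb8 over the 18 arrays were found by Pearson correlation of the log2 ratios, as a description, since all share the same arrays and the split by area. The first was Hoxaas2, an antisense RNA of the HoxA cluster, at 0.959. Its probe (chr6:52132363-52132422), named through the RefSeq table, lies between those of Hoxa2 and Hoxa3 and was detected on 13 arrays. Its log2 ratio averaged 0.50 ± 0.39 (SD, n = 5) and -0.43 ± 0.37 (SD, n = 3) in normal central and peripheral samples. In dissected glands it averaged 0.70 ± 0.77 (SD, n = 5) and -0.50 ± 0.41 (SD, n = 5). The difference in the mean of both states was 1.06 (SE 0.24, limma adjusted p = 0.0252). Lrp11 (0.952), Nnat (0.947), Cited1 (0.938) and Snap91 (0.937) followed.

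Among Hox genes Hoxa4 correlated at 0.936, Hoxa5 at 0.878, Hoxa2 at 0.865 and Hoxb5 at 0.775 with that mean. Hoxb6 by its brighter probe (-0.465), Hoxb9 (-0.348) and Hoxc5 (-0.336) lay at the other end. A further pair of antisense RNAs of the clusters, Hoxaas3 and Hoxd3os1, were named by their probes and detected on no array.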

How the data were processed

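Gene expression was measured on 18 two-colour Agilent 4x44K arrays of laser-captured mouse thyroid. Per the file headers, the scanner output was made by Agilent Feature Extraction 9.5.1.1, and the submitters' processing notes list 8.5.1.1 instead. From it, the deposited intensity of spot and background in Cy5 and Cy3 was used, with the log10 ratio of processed signals as an alternative, and the flags for spots that are well above background or non-uniform. A further file of linear ratio values was deposited by the authors. No processing step is given for it in the sources used here, its columns correlated at 0.975 to 1.00 with the scanner ratios, and the column medians were 0.871 to 1.06, so direction and linear scale were read from the values. It served as an alternative.

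Intensities were background-corrected (normexp, offset 50) and loess-normalized within arrays with control spots at weight 0, non-uniform spots left out and spots of 1 probe averaged. A probe was kept if well above background in Cy5 on at least 3 arrays (19082 of 41174), and the probe with the highest mean intensity stood for its gene (14664 genes). Differences are of log2 ratios, so a constant dye bias drops out. A limma 3.58.1 model of the 4 groups used all arrays (R 4.3.3, with the package data.table, version 1.17.8), with Benjamini-Hochberg adjustment over all genes and two-sided tests, and was tested on simulated data. The number of arrays limits the precision. Probe positions are those of the files (mm7), and without a genome of that build no probe was placed in an exon, intron or UTR.

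Members, gene lists and tests were chosen with earlier results of these data known. Named were Hox genes, list members that were called or else the 3 with the smallest p, and the 5 genes most like Hoxb7 and Hoxb8. A few genes of that rule and a probe sequence are not reported here. In addition to the lists whose values the text gives, there were 13 marker lists of other cell types. Same-numbered samples of different groups correlated at -0.07 to 0.29 (median 0.07), with 9 of 24 pairs over 0.1. Differently numbered pairs had a median of -0.01, with 7 of 96 over 0.1. Pairs on the same slide had a median of 0.09, with 10 of 24 over 0.1. The main test did not treat samples as paired, and blocks by replicate number and by slide were run as alternatives.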

Additional observations from a re-analysis of the deposited data

Results flagged for a closer look

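Of 54 gene and group combinations of 5 arrays tested for a sample far from the others, 2 stood out, and chance gives about 1 in 20. Hoxb9 reached a log2 ratio of 0.54 on normal central 5, where the nearest of the other 4 arrays lay at -0.02. The bright Hoxd3 probe reached 1.61 on dissected peripheral 5, where the nearest other array lay at 0.29. That probe also had the highest value of its group on dissected central 5 (1.53), from the same slide.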

How the results depend on the processing

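The counts of Hox genes called after dissection, in either area and in their difference, stayed at 0 under every alternative run. The count in dissected glands, 2 in the report, was 0 with scaling between arrays and with Cy5 alone. It was also 0 with scan day 2 alone and with only the arrays of the groups compared. Of all genes 0.205%, 0.307%, 0% and 0.143% were called in these settings, in that order, against 0.586% in the report. The Hox count was 1 with median centring without loess (0.321% of all genes called), without the filter on dim probes (0.21%) and with scan day 1 alone (0.177%). It was also 1 with the slide as a fixed block (0.607%) and with the replicate block (0.573%), and 4 without the 4 weak arrays (1.32%). The count in the mean of both states, 4 in the report, was 2 with the slide as a fixed block (1.24% of all genes called) or the replicate block (1.23%). It was 1 with scan day 1 alone (0.437%) and 0 with scan day 2 alone (0.00682%), against 1.43% of all genes in the report. In normal glands the Hox count was 0 (0.28% of all genes called) and became 1 without the weak arrays (0.648%). Leaving out each array in turn gave 0 to 4 in dissected glands, 3 to 5 in the mean of both states and 0 in the other comparisons. Each scan day alone held fewer arrays, and the 4 weak arrays were all scanned on day 2. The cause of the lower counts by scan day was not tested. In the mean of both states the processed signals and the authors' value table each called 6, with Hoxa5 and Hoxb5 added. Of all genes 1.62% and 1.69% were called there. With the replicate block, Hoxa4 in the mean of both states had limma adjusted p = 0.0505, Hoxa2 0.0570 and Hoxb8 in dissected glands 0.0618. That block was taken from the numbers in the labels. Same-numbered samples also lay on the same slide, except normal peripheral 3, which lay on slide 4. The 18 genes detected became 28 when the flag for a positive and significant signal replaced that for a signal well above background, 22 on at least 1 array and 14 on at least 9. Low signal limits Hoxa2, Hoxb5, Hoxc6 and the second Hoxb6 probe, for which a whole peripheral group was not well above background, and the size of the Hoxb7 and Hoxb8 differences, whose peripheral level was at background on 4 and 3 of 8 arrays.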
